A study of Homo sapiens with 2 samples.

Results

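The AP-1 and BATF transcription factors were examined in the Hodgkin lymphoma cell line L-540, an established line with T-cell features. All probe sets that the platform annotation assigns to BATF, BATF3, JUN, JUNB, JUND, FOS, FOSB, FOSL1, FOSL2 or ATF3 were taken, which gave 17 of 22215 non-control probe sets and 10 of 11963 named genes. The genes were chosen by family and with the ratios of these same arrays already known, so their values are a description of this pair of arrays and no test was made on them. RNA came from cells of this line left untreated and from cells given vorinostat, an inhibitor of histone deacetylases, and both groups shared the line and its standard culture. The labels state no dose and no duration for vorinostat. Each group held 1 Affymetrix HG_U133A array, so no difference below had a replicate check. In bulk RNA, fewer cells with a transcript and less transcript per cell cannot be told apart.

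AP-1 is a family of dimers built from basic leucine zipper (bZIP) proteins. JUN proteins pair with each other or with FOS proteins and bind a short palindrome, and ATF3 and the BATF proteins can take the place of FOS. The BATF proteins are short and lack the activation domains of FOS, and in lymphocytes BATF-JUN dimers bind composite sites together with IRF4 or IRF8. Hodgkin and Reed-Sternberg cells are known for strong JUN and JUNB activity, and JUNB binds the promoter of TNFRSF8, the gene of the Hodgkin antigen CD30. FOS, FOSB, JUN, JUNB and ATF3 are also immediate early genes, induced rapidly and briefly by growth or stress signals.

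The labelled cell type was checked against its markers. Of 12 genes typical of Hodgkin lines, 10 lay above the detection floor on both arrays, TNFRSF8, IL2RA, TRAF1 and GATA3 among them, and the chemokine genes CCL17 and CCL22 did not. The floor was 68.9 signal units, the 40th percentile of all signals. Fewer markers of the other lists passed it, with 2 of 5 for B cells and 2 of 5 for monocytes on both arrays. For epithelium and fibroblasts 2 of 8 passed untreated and 4 of 8 treated. For T and NK cells 5 of 8 passed untreated and 3 of 8 treated, and the line itself has T-cell features. Summed signals on the untreated and treated array were 31209 and 24877 for the Hodgkin list and 5164 and 1452 for T and NK cells. They were 610 and 350 for B cells, 381 and 272 for monocytes, and 531 and 586 for epithelium and fibroblasts. No marker list had its part in the ratios below tested. The 3' to 5' ratio was 1.06 untreated and 1.24 treated for the ACTB control probe sets, and 0.856 and 0.850 for the GAPDH ones. The effect of this on the ratios was not tested either.

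In the vorinostat array 4 of the 10 genes were at least 2-fold lower, namely BATF3, BATF, FOSL2 and JUNB, and 0 were at least 2-fold higher. JUND, JUN, FOSL1 and ATF3 lay within 2-fold on their brightest probe sets. FOS and FOSB were under the floor on both arrays and gave no ratio, so that 8 of the 10 genes were measured. A gene was represented by its brightest probe set, and each ratio sets the vorinostat signal over the untreated one. Over the 8 measured genes the median log2 ratio was -0.78, beside -0.04 over all 8277 measured genes, where 5.12% were at least 2-fold lower and 3.77% at least 2-fold higher. The genes were proposed from these same ratios, so nothing is read from that contrast. At the level of probe sets, 14 of 17 were measured, of which 8 were at least 2-fold lower, 0 higher and 6 within 2-fold. At a 1.5-fold rule 4 genes were again lower and 0 higher, beside 15.5% and 12.7% of all measured genes, and at 3-fold 1 was lower, BATF3, beside 0.93% lower and 0.544% higher. Over all measured probe sets 5.47% were at least 2-fold lower and 3.65% higher.

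**Figure D1:**
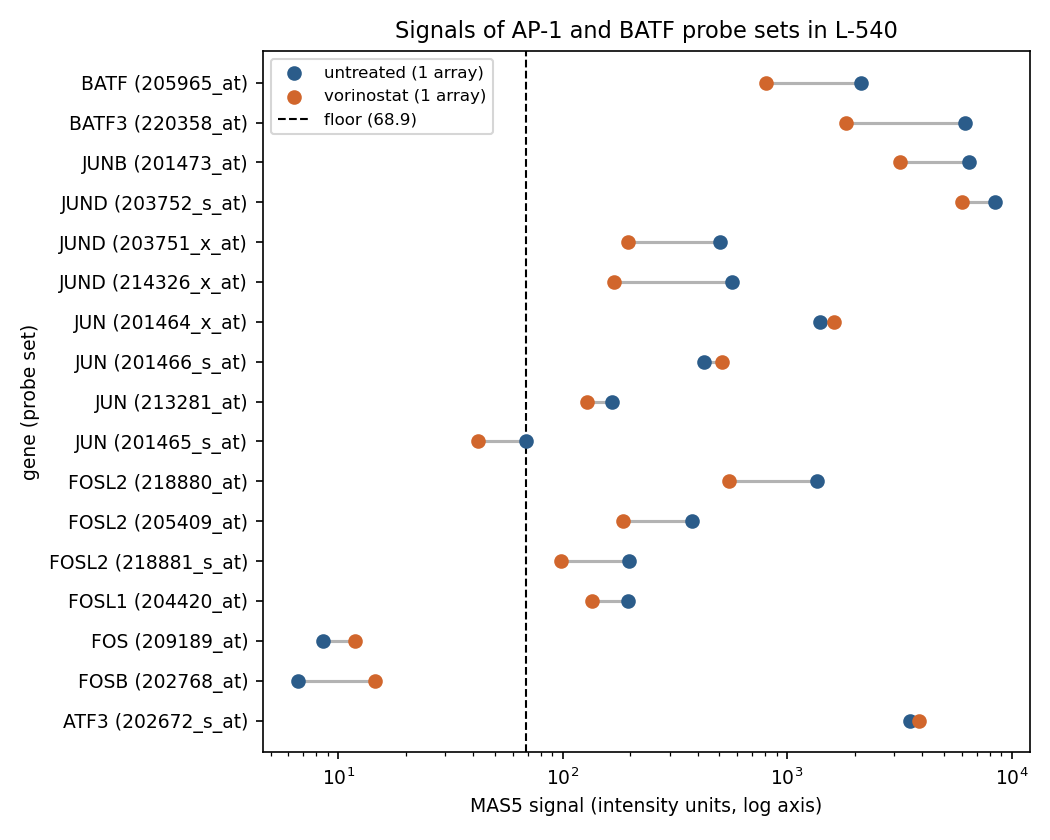
MAS5 signal (intensity units, log axis) of each of the 17 probe sets, with 1 point for the untreated and 1 for the vorinostat array and a dashed line at the floor of 68.9. Signals of different probe sets are not comparable with each other. The untreated point lies to the right for BATF, BATF3, JUNB, JUND, FOSL2 and FOSL1, and for the JUN probe sets 213281_at and 201465_s_at. The last of these, FOS and FOSB lie left of the floor on both arrays.

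Of the BATF genes, BATF3 had the lowest ratio of the family. BATF3 encodes a small bZIP factor best known for its need in the development of cross-presenting dendritic cells. Its probe set (220358_at) gave a signal of 6200 on the untreated and 1825 on the treated array, a 3.40-fold lower signal. Among the 8277 measured genes its log2 ratio of -1.76 was the 48th lowest, and among the 3931 genes with a geometric mean signal of at least 500 the 15th lowest. In that brighter class 4.17% of genes were at least 2-fold lower and 4.04% higher. BATF, which directs the differentiation of T helper and effector T cells, gave 2143 and 809 on its probe set (205965_at), 2.65-fold lower. Its log2 ratio of -1.41 was the 133rd lowest of all measured genes and the 50th lowest of the brighter ones. Each of these genes has 1 probe set on the array, so neither ratio could be set against a second probe set.

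Of the JUN genes, JUNB and JUND were lower, and JUN had no settled direction. JUNB, the partner most often linked to CD30 expression, had signals of 6463 untreated and 3181 treated (201473_at). Its ratio was 2.03-fold, just past the 2-fold rule. When both arrays were scaled to equal medians the log2 ratio of JUNB was -0.89, within 2-fold. That scaling moved the median of all genes by 0.12 on the log2 scale and turned the share of higher genes among those past 2-fold from 42.4% to 58.8%.

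JUND, the most broadly expressed JUN gene and often a brake on proliferation, gave different ratios on its 3 probe sets. The brightest (203752_s_at) had 8431 untreated and 6006 treated, 1.40-fold lower. The other two had 501 and 195 (203751_x_at, 2.57-fold lower) and 571 and 170 (214326_x_at, 3.36-fold lower). All 3 were lower in the treated array, but the call for JUND depends on which is used. The range of 1.26 in log2 ratio was wide for one gene: of 603 genes with exactly 3 probe sets above the floor on both arrays the median range was 0.41, and 1.82% had a range at least as wide. The suffixes of all 3 mark probes that can match other transcripts.

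JUN, the founding member of the family and a main target of the JNK kinases, lay close to equal on both arrays. Its brightest probe set (201464_x_at) gave 1404 untreated and 1627 treated, 1.16-fold higher. A second (201466_s_at) gave 427 and 514, 1.20-fold higher. Another (213281_at), the 1 JUN probe set without a shared-sequence suffix, went the other way with 165 and 129, 1.28-fold lower. The last (201465_s_at) was under the floor on both arrays with 68.7 and 42.1. The range over the 3 measured ones was 0.63, so the sign of the JUN ratio is not settled by its probe sets. Without shared-sequence probe sets the log2 ratio of JUN was -0.36.

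Of the FOS genes, FOSL2 was lower on each of its probe sets, FOSL1 was lower by less than 2-fold, and FOS and FOSB could not be measured. FOSL2 encodes FRA2, a FOS protein without the strong activation domain of FOS. Its brightest probe set (218880_at) had signals of 1365 untreated and 553 treated, 2.47-fold lower. The other two gave 376 and 186 (205409_at, 2.017-fold lower) and 198 and 98.8 (218881_s_at, 2.005-fold lower). These ratios spanned 0.30 on the log2 scale. Over all genes 849 had 3 or more probe sets above the floor on both arrays, and 17 of those had every probe set at least 2-fold lower, FOSL2 included. Both dimmer FOSL2 probe sets lay within 2-fold under each of the other scalings, at -0.88 and -0.87 with equal medians, -0.93 and -0.86 after quantile normalization and -0.94 and -0.90 after loess, whereas the brightest stayed past it.

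FOSL1 encodes FRA1, which is prominent in many carcinomas. Its probe set (204420_at) had 196 untreated and 135 treated, 1.46-fold lower. FOS, the classical partner of JUN, had 8.54 and 11.9 (209189_at) and FOSB 6.60 and 14.5 (202768_at). Both pairs lie under the floor and under 43.1, the brightest value among 27 bacterial control probe sets, so no fold is given and neither gene can be called higher or lower.

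ATF3, a stress-induced factor that can repress or activate its targets with JUN, was nearly equal on both arrays. Its probe set (202672_s_at) had 3535 untreated and 3883 treated, 1.10-fold higher. Among the 8 measured genes only JUN and ATF3 had a ratio above 1 on the brightest probe set. For scale, the ratios of the 2 brightest probe sets of one gene differed by a median of 0.25 on the log2 scale over 2428 genes, and by 0.67 at the 90th percentile. The ratios of JUN (0.21) and ATF3 (0.14) are smaller than that median gap, and those of BATF3, BATF, FOSL2 and JUNB are larger than the 90th percentile. This gap covers differences between probes on the same arrays and not the spread between cultures. It was taken from other genes for BATF3, BATF and JUNB, which have 1 probe set each. The genes were also chosen with their ratios known, so the gap gives a scale and no test.

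**Figure D2:**
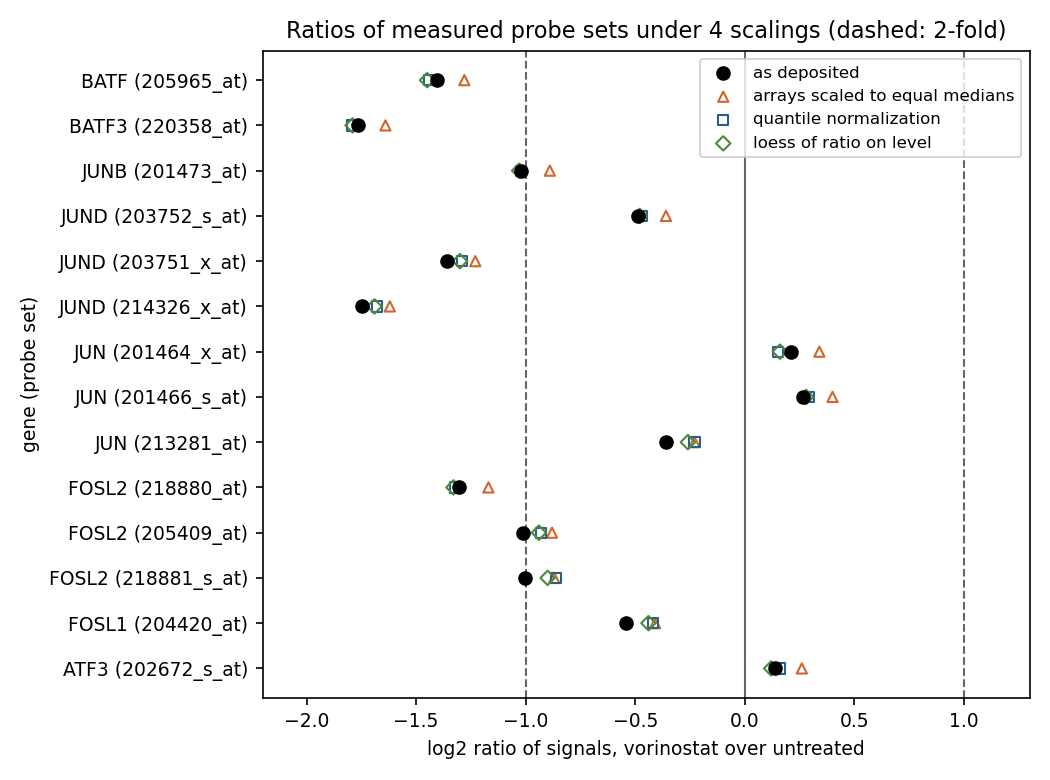
Log2 ratio of vorinostat over untreated for the 14 measured probe sets, as deposited (black) and under 3 other scalings (open symbols), with dashed lines at 2-fold. BATF3, BATF, the brightest FOSL2 probe set and both dimmer JUND ones lie left of the 2-fold line under every scaling drawn. JUNB and both dimmer FOSL2 probe sets lie close to it.

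**Figure D3:**
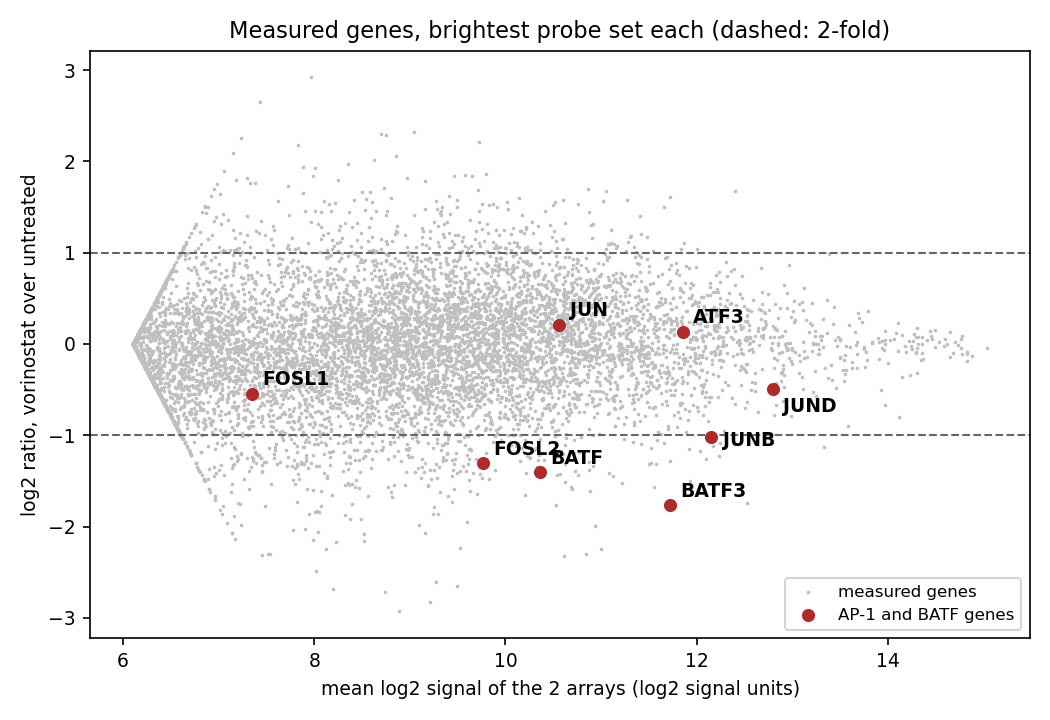
Log2 ratio against mean log2 signal for the 8277 measured genes (grey), each on its brightest probe set, with the 8 measured AP-1 and BATF genes in red and dashed lines at 2-fold. BATF3 is the lowest of the red points at -1.76, and JUN and ATF3 lie just above 0.

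The promoters of these genes were compared because several of them are known to be controlled by AP-1 itself. RefSeq promoter windows on GRCh38.p14, from 250 bases before to 50 after a start, were held for 8 of the 10 genes, with a pair of entries for ATF3. BATF3 and FOSL1 were not matched. Each window was searched on both strands for the AP-1 palindrome TGANTCA, the cyclic AMP response element TGACGTCA, the variant TGACATCA, the TATA element TATAAA, the GC box GGGCGG and the CArG box of serum response factor. TGACATCA was added after the sequences had been seen. The 250 bases before the start are shown for a pair of genes at least 2-fold lower, BATF (chr14:75522219-75522468, plus strand) and JUNB (chr19:12791236-12791485, plus strand), and for a pair within 2-fold, JUN (chr1:58784048-58784297, minus strand) and ATF3 (first entry, chr1:212565157-212565406, plus strand). They run 5′ to 3′ along the gene's strand, and capitals mark TGACATCA or TATAAA.
BATF: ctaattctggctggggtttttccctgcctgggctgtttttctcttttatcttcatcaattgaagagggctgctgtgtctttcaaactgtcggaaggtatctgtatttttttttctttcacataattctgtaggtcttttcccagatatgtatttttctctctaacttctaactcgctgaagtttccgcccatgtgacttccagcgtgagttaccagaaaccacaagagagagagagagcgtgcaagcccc
JUNB: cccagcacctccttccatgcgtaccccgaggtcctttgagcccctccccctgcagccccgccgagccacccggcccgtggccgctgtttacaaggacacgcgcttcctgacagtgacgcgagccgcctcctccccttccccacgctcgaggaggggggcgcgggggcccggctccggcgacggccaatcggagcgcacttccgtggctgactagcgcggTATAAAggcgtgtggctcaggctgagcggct
JUN: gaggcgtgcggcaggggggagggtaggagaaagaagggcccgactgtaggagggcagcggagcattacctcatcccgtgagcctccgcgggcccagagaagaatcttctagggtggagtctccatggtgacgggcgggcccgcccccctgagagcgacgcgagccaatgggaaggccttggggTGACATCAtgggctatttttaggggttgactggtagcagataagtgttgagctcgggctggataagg
ATF3: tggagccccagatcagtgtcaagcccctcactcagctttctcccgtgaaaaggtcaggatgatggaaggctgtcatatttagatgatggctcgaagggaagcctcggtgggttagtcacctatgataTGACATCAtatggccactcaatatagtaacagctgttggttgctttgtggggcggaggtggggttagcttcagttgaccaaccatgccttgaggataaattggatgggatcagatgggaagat

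TGACATCA was present in the windows of JUN, with its first base 67 bases before the start, and of ATF3, 123 bases before the start of the first entry. Of 35116 RefSeq promoter windows of the same length 2.61% held it. The looser word TGACNTCA, also searched after the sequences had been seen, was found in JUN, ATF3 and JUND, beside 7.72% of all windows. These matches were noticed in the letters and are tied to no ratio here. TGANTCA was found in 1 window, that of FOSL2, whose match begins at base 5 after the start, and 7.71% of all windows held it. The stretch around it is shown with the match in capitals, and this match is tied to no ratio either.
FOSL2: ccattgtagTGACTCAtctcgggca
TGACGTCA was found in the JUND window, 200 bases before the start, beside 1.85% of all windows. TATAAA lay 31 bases before the start in JUNB, 33 in FOS and 30 in FOSB, and the second ATF3 entry held it 230 bases before the start, beside 11.5% of all windows. No CArG box was found in these windows, and 1.29% of all windows held one. Sequence more than 250 bases before the start was not searched. GC boxes were found in BATF, JUN, JUND, FOS, FOSB, FOSL2 and the first ATF3 entry, beside 45.0% of all windows. The window of BATF was 46.0% G and C and that of JUND 77.0%, beside a median of 58.7%. A match describes letters in a window, and no binding was measured in this study.

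Some of these genes lie next to each other in the genome. In the GRCh38.p14 gene table BATF3 and ATF3 stand on chromosome 1 with 1 protein-coding gene between them, and FOS and BATF on chromosome 14 with 1 between them, JDP2, a further AP-1 repressor gene that had no probe set here under its symbol. BATF3 was 3.40-fold lower and its neighbour ATF3 1.10-fold higher. The nearest 3 measured genes on each side were listed for every member, 48 distinct genes that are not members. Of these 2 were at least 2-fold lower and 3 at least 2-fold higher, beside 5.12% and 3.77% of all measured genes. The median log2 ratio of the neighbours was 0.04, and nothing is read from these counts. The highest and the lowest neighbour of each lower member are given here. Around BATF they were the tubulin glutamylase gene TTLL5 (2.52-fold higher) and ZC2HC1C (at least 1.69-fold lower), around BATF3 RPS6KC1 (3.26-fold higher) and PACC1 (a log2 ratio of -0.07). Around JUNB they were HOOK2 (1.51-fold higher) and the lysosomal nuclease gene DNASE2 (a log2 ratio of -0.38), and around FOSL2 RBKS (at least 1.69-fold higher) and WDR43 (1.52-fold lower).

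**Figure D4:**
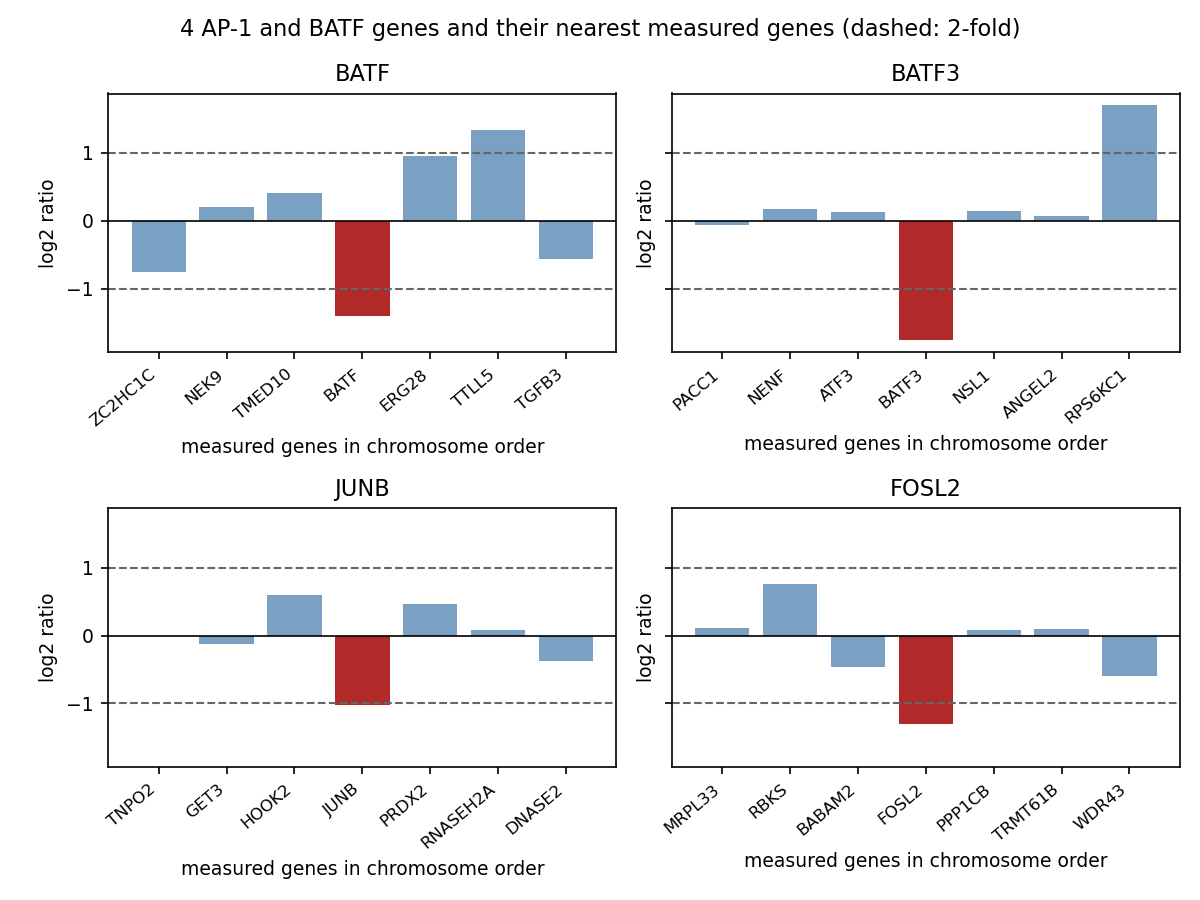
Log2 ratio of vorinostat over untreated for BATF, BATF3, JUNB and FOSL2 (red bars) and the nearest 3 measured protein-coding genes on each side (blue bars), in chromosome order with no distances, and with dashed lines at 2-fold. A bar of a gene under the floor on 1 array is a bound, as for ZC2HC1C and RBKS. None of the 24 neighbour bars drawn reaches 2-fold lower, and those of TTLL5 and RPS6KC1 pass 2-fold higher. Whether ZC2HC1C and RBKS pass 2-fold cannot be told from a bound. Of all measured genes 5.12% were at least 2-fold lower and 3.77% higher, and nothing is read from the neighbour counts.

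Genes around AP-1 were then described from lists of relatives, inputs, partners and targets. Each count below stands beside 5.12% of all measured genes at least 2-fold lower and 3.77% at least 2-fold higher. The lists are short, and no count was tested against these shares. Among 11 measured ATF, CREB and JDP2 factors 2 were at least 2-fold lower and 0 higher (median log2 ratio -0.08). ATF5, an ATF4-like stress factor, went from 610 to 128 (4.76-fold lower, with a log2 ratio of -1.32 on its other probe set). ATF4, the translation-induced regulator of amino acid genes, went from 6311 to 2791 (2.26-fold lower). ATF7 was at least 1.79-fold lower, with the treated signal under the floor, and ATF6 1.45-fold higher. Among 9 C/EBP and PAR bZIP factors 2 were lower and 0 higher (median -0.32), CEBPB (3.05-fold) and CEBPG (2.92-fold), both of which can pair with AP-1 or ATF proteins. CEBPD was 1.69-fold lower, with a treated signal of 69.5 just above the floor, and XBP1 was 1.37-fold lower. None of 7 MAF, NRF and BACH factors passed 2-fold (median -0.12), with NFE2L1 1.91-fold lower, BACH1 1.68-fold and NFE2L3 1.43-fold higher and MAFG 1.28-fold lower. With arrays scaled to equal medians the medians of the ATF, CREB and JDP2 list and of the MAF, NRF and BACH list were 0.05 and 0.01, so neither list has a settled direction. The medians of the factors that induce AP-1 genes, of the IRF and NFAT partners and of the other immediate early genes, given next, changed sign under other settings too, with ranges of -0.29 to 0.03, -0.17 to 0.28 and -0.10 to 0.22.

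The kinases that act on AP-1 mostly lay within 2-fold. Of 24 MAP kinase inputs 1 was lower and 0 higher (median 0.04). MAP3K2, which feeds the JNK and ERK5 pathways, was 2.10-fold lower, MAPK7, which is ERK5 itself, 1.73-fold and MAP3K4 1.62-fold lower, and MAP3K7, the TAK1 kinase, 1.57-fold higher. The JNK genes were higher by less than 2-fold, MAPK9 from 973 to 1463 (a log2 ratio of 0.59, and 0.92 on its other probe set) and MAPK8 from 177 to 257 (0.54, and 0.23 on its other probe set). Of 13 factors that induce AP-1 genes 2 were lower and 0 higher (median -0.18). The acetyltransferase coactivator gene CREBBP was 2.47-fold lower and MEF2D 2.11-fold lower, though the other measured probe set of MEF2D had a log2 ratio of 0.51. GABPA was 1.83-fold and ETS1 1.63-fold lower.

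Genes of AP-1 turnover and cofactors had 1 of 12 lower and 2 higher (median 0.20). FBXW7, the ubiquitin ligase subunit that recognises phosphorylated JUN, went from 372 to 840 (2.26-fold higher), and HDAC3, a deacetylase that represses JUN activity, from 1536 to 3268 (2.13-fold higher). On its brightest probe set the ligase scaffold gene CUL4A was 2.03-fold lower, with a log2 ratio of -0.36 on its other one, and HIVEP3 was at least 1.91-fold higher. Of 10 IRF and NFAT partners 1 was lower and 0 higher (median -0.14). IRF4, the main BATF partner in lymphocytes, was 1.22-fold higher, from 12032 to 14699, and 1.42-fold higher on its second measured probe set. IRF8 was 1.76-fold higher, from 223 to 393. NFAT5 was 2.27-fold lower, though its dimmer probe set had a log2 ratio of -0.64. RUNX3 was 1.73-fold and IRF2 1.55-fold lower. On the array where BATF and BATF3 were at least 2-fold lower, IRF4 and IRF8 were therefore higher, by less than 2-fold.

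Of 24 other immediate early genes measured, 0 were at least 2-fold lower and 3 higher (median 0.07). SGK1, a kinase gene, went from 70.4 to 199 (2.83-fold higher), DUSP6, the phosphatase that inactivates ERK, from 104 to 238 (2.29-fold higher, but a log2 ratio of 0.44 on its other measured probe set) and the orphan receptor gene NR4A3 was at least 2.25-fold higher. NR4A2 was 1.64-fold higher. The untreated signal of SGK1 lies just above the floor and that of NR4A3 (50.5) under it.

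Of 27 measured genes known as AP-1 or BATF targets 4 were at least 2-fold lower and 0 higher, with a median log2 ratio of -0.24. Ratios were below 1 for 22 and above 1 for 5 of them, and 53% of all measured genes had a ratio below 1. With arrays scaled to equal medians these were 16 and 11, beside 43.0% of all genes below 1, and the list median was -0.11. PRDM1, which encodes the plasma cell and effector T cell regulator BLIMP1, went from 2712 to 801 (3.39-fold lower). TNFRSF8 went from 10777 to 3228 (3.34-fold lower), the adhesion gene ICAM1 was 2.96-fold lower and the perforin gene PRF1 2.40-fold lower. CD44 had the highest log2 ratio of the list, 0.98, a bound because its untreated signal lay under the floor. Of further genes reported as AP-1 or BATF targets in lymphoma, LGALS1 and MYC lay close to equal. LGALS1, the galectin-1 gene and a JUN target in Hodgkin cells, went from 16189 to 14489 (1.12-fold lower), and MYC, reported as a BATF3 target, from 3471 to 3263 (1.06-fold lower). The list was assembled from general knowledge of these factors and with earlier results of these data known, so nothing is read from its counts. Which factor acts on which gene in L-540 was not measured.

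**Figure D5:**
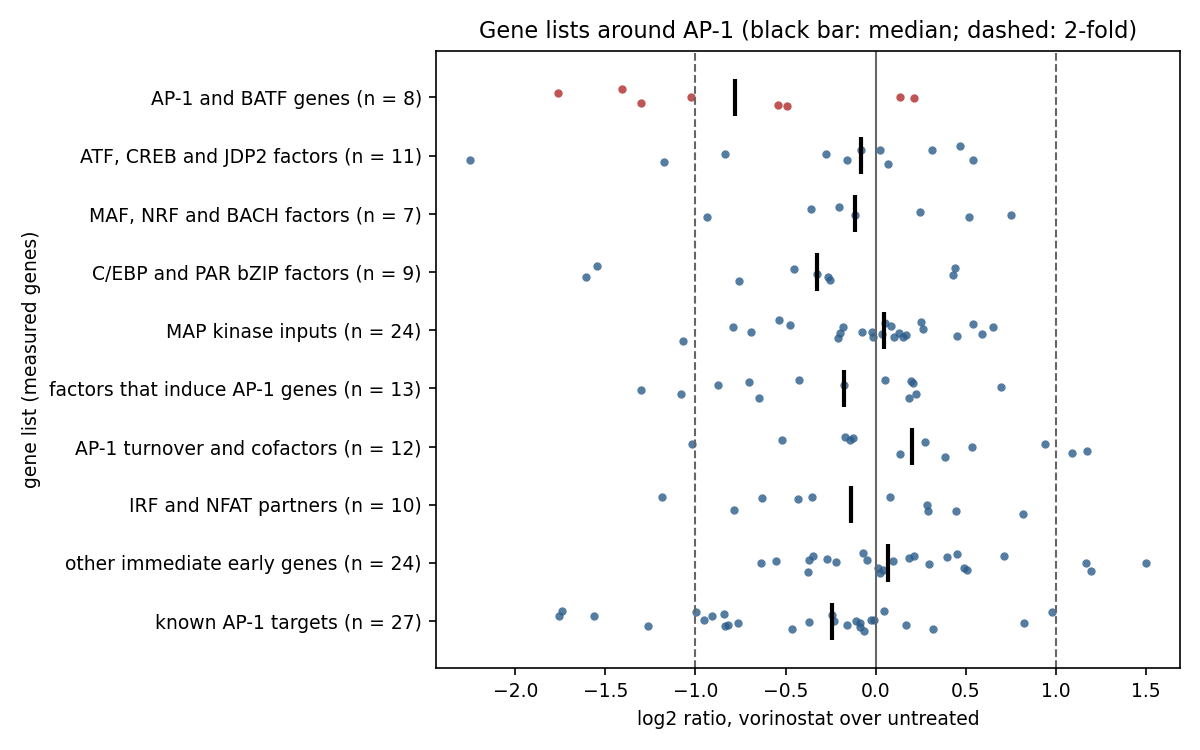
Log2 ratio of vorinostat over untreated for the measured genes of each list (1 point a gene on its brightest probe set, genes under the floor on 1 array at their bound), with the list median as a black bar and dashed lines at 2-fold. The AP-1 and BATF genes have a median of -0.78, and the medians of the other lists lie between -0.32 and 0.20. The AP-1 and BATF genes were proposed from these same ratios, so nothing is read from that contrast.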

How the data were processed

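RNA of 2 L-540 samples, 1 untreated and 1 given vorinostat, was biotin-labelled, per the labels' protocols, and run on 1 HG_U133A array each. The authors deposited intensity values, 1 MAS5 signal per probe set on a linear scale, per the submitters' processing notes; the version, scaling target and detection calls are not given in the sources used here. Both arrays had a 2%-trimmed mean signal of 500.2, and the deposited scaling was kept. The number of arrays limits the precision.

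Of 22283 probe sets 68 controls were left out. The platform table gave 1 symbol for 19065, several for 1043 and no entry for 2107; genes were named from the first alone. Values below the floor (68.9) were raised to it and log2 was taken; a probe set under it on both arrays was not measured, and one under it on 1 array gave a bound. Calls are ratios of at least 2-fold, with no test and no p-value. Every member was named, and in each list up to 4 genes with the largest ratios plus IRF4, TNFRSF8, MYC, LGALS1, IRF8, ATF4, JDP2, MAPK8 and MAPK9. CD44 was named as well, as the target with the highest ratio, a choice made after its value was seen. Neighbours were the nearest 3 measured genes on each side, and the highest and lowest are named for the 4 lower members, a choice made after their values were seen. The members and lists were chosen with earlier results of these data known. Alternatives covered scaling, floor, probe set choice and fold threshold. Steps were tested on simulated data. Python 3.11.15, pandas 2.3.3, statsmodels 0.14.6 and matplotlib 3.10.9 were used.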

Additional observations from a re-analysis of the deposited data

How the results depend on the processing

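No paired analysis was possible because each group holds 1 array, and for the same reason no replicate could be left out. BATF3, BATF and FOSL2 were at least 2-fold lower under each of the 8 alternatives of scaling, floor and probe set choice, with log2 ratios from -1.79 to -1.64, -1.45 to -1.28 and -1.33 to -1.01; the last value of FOSL2, -1.01, is the median over its probe sets. JUNB lay between -1.03 and -0.89 and was within 2-fold with arrays scaled to equal medians (-0.89). JUND was past 2-fold as the median over its probe sets (-1.36), and JUN changed sign, within 2-fold, without shared-sequence probe sets (-0.36). FOSL1 gave no value with the higher floor, nor JUND and ATF3 without shared-sequence probe sets. Of 61 member ratios recomputed, 57 stayed on their side of 2-fold and moved by no more than 0.25, the median gap between probe sets of a gene. The number of members at least 2-fold lower was 4 at 1.5-fold too and 1 at 3-fold. Over all genes, the number lower was 424 and became 689 with a lower floor (25th percentile), 251 with a higher one (60th), 707 with an offset of 16 in place of the floor and 251 without shared-sequence probe sets, settings that measured 10100, 5814, 11963 and 5187 genes. The number higher was 312 and became 471 with the offset. At 1.5-fold 1283 were lower and 1051 higher, and at 3-fold 77 and 45. Of 72 list medians recomputed, 71 moved by no more than 0.25; the IRF and NFAT partners had 0.28 without shared-sequence probe sets. Signals under the floor, such as those of FOS and FOSB, cannot show a difference here.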
